A study of Mus musculus with 10 samples.

Results

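The genes described here are 9 that build or remodel the extracellular matrix: the laminin chains Lama3 and Lamb3, fibronectin (Fn1), the small proteoglycan biglycan (Bgn), extracellular matrix protein 1 (Ecm1), the metalloproteinases Mmp13 and Mmp14, and the metalloproteinase inhibitors Timp1 and Timp3. They were chosen by name, with earlier results of these data known. A count among the 9 set beside the share of all genes is therefore a description and no test. The names were matched by symbol among the 31053 genes of each count matrix, and each symbol had 1 match. Their transcripts were measured by droplet-based single-cell RNA sequencing in EpCAM+ lineage-labelled cells of the distal mouse lung. Tamoxifen, given 3 times at 0.2 mg/gbw, activated a Cre recombinase driven by the promoter of Sftpc, the surfactant gene of alveolar type 2 (AT2) cells. In Sftpc-CreERT2;R26R-Confetti mice both RFP+ and YFP+ cells were wildtype, with 1 library for each colour and no time point in the labels (the study's methods place them at 2 weeks). In Sftpc-CreERT2;Red2Kras mice RFP marked mutant cells and YFP marked wildtype neighbours in these same lungs, and each colour had 2 libraries from 4 days and 2 from 2 weeks after induction. Mice were adults of both sexes on a mixed background, and at least 2 lungs were pooled within each sample. A Red2Kras YFP+ cell was therefore wildtype but came from a lung that also held mutant cells. All levels are for cells with 0 UMIs of Ptprc, the pan-leukocyte gene. A UMI, or unique molecular identifier, marks 1 captured transcript, and a level is a gene's UMIs summed over the cells of a library relative to the scaled total of that library (CPM). Such a sum does not tell more positive cells from more RNA in each cell.

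Basement membranes are thin sheets of laminin, type IV collagen, nidogen and perlecan on which epithelia rest. Laminins that hold the products of Lama3 and Lamb3 anchor epithelial cells through integrins, and these chains are often made by epithelia that migrate over a wound. Fibronectin and biglycan belong to the interstitial matrix. In the lung both come from mesenchymal cells, and fibronectin also from macrophages. Mmp13 is a secreted collagenase, and Mmp14 is a membrane-bound protease that cleaves collagen and activates other metalloproteinases. TIMPs bind and block metalloproteinases, and differ in which of them they block. Ecm1 is a secreted glycoprotein that binds matrix components.

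The 10 libraries held 42012 cell barcodes, and 30599 cells passed the quality filters with 0 Ptprc UMIs, between 1138 and 4306 for each library. They carried 8163707 to 71669755 UMIs for each library, and their median depth ran from 3251 to 15685 UMIs, highest in the 2-week RFP libraries. No pair of libraries shared more than 11 cell barcodes. AT2 markers summed to 90610 CPM or more in every library. The library labelled 4 days RFP replicate 1 stood apart from the other RFP libraries: markers of the transitional state between AT2 and AT1 cells (Krt8, Krt19, Cldn4 and others) summed to 1317 CPM there, against 3441 to 4982 CPM in the other 3 and 760 to 1371 CPM in the YFP libraries. Confetti cells of known sex were all female, the second replicate of each Red2Kras group was almost wholly male (at most 0.471% female) and the first replicates were mixed (26.4% to 83.7% female). Red2Kras therefore differed from Confetti in line, sex and, at 4 days, time, and these cannot be told apart.

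Across the 9 genes, 3 patterns of level were seen in mutant RFP+ cells. Ecm1, Mmp13 and Timp1 were low in Confetti and Red2Kras YFP cells and several-fold higher in 3 of the 4 RFP libraries. Lama3, Mmp14, Fn1 and Bgn stood higher in part of the RFP libraries by smaller or less even amounts. The levels of Lamb3 and Timp3 overlapped between RFP and YFP libraries at both time points. None of these differences passed the edgeR quasi-likelihood test across the genes left by the filter on low counts with all libraries and cells kept. Some of them passed in the same test without that filter and in DESeq2, as given with the counts of genes.

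**Figure D1:**
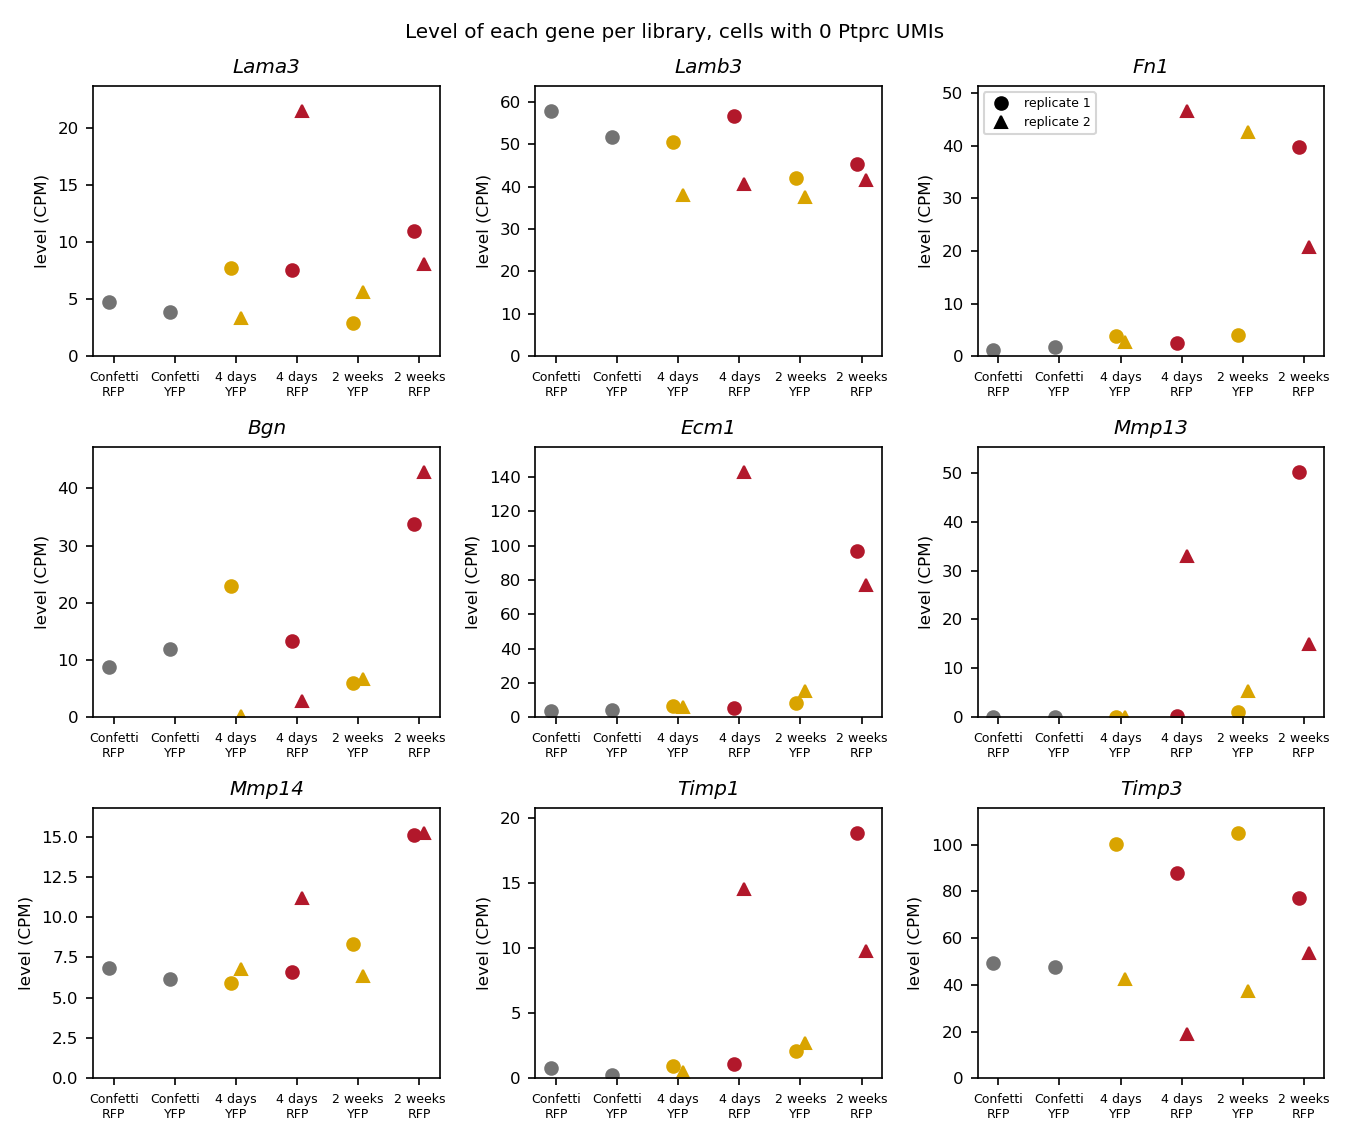
Level of each of the 9 genes (y axis, CPM, linear from 0) in each library, by group along the x axis, with replicate 1 as circles and replicate 2 as triangles. Ecm1 lay between 77.1 and 143 CPM in 3 of the 4 RFP libraries and at or below 15.4 CPM in all others, while Lamb3 lay between 37.6 and 57.9 CPM throughout.

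Ecm1 (ENSMUSG00000028108, GRCm38 chr3:95734147-95739569, minus strand, overlapped on its own strand by Mir7014) stood several-fold higher in 4-day RFP replicate 2 and both 2-week RFP replicates than in the other libraries. Its level was 3.73 and 4.43 CPM in Confetti RFP and YFP, 6.86 and 5.88 CPM in the 4-day YFP replicates 1 and 2, and 8.39 and 15.4 CPM in the 2-week YFP replicates. It was 5.38 and 143 CPM in the 4-day RFP replicates and 96.6 and 77.1 CPM in the 2-week RFP replicates. Both 2-week RFP libraries thus lay above both 2-week YFP libraries, while at 4 days the groups overlapped, with the library labelled 4 days RFP replicate 1 at the level of the YFP libraries. Over both time points the fitted difference between RFP and YFP was 3.18 ± 0.81 on the log2 scale (SE, 4 against 4 libraries, edgeR quasi-likelihood test, adjusted p = 0.187). Without the library labelled 4 days RFP replicate 1 it was 3.56 ± 0.39 (adjusted p = 0.0288), and without 4-day RFP replicate 2, the library with the highest level, it was 1.84 ± 0.67 (adjusted p = 0.389).

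Timp1 (ENSMUSG00000001131, chrX:20870166-20874735, plus strand, overlapped on the other strand by Syn1), a secreted inhibitor of most metalloproteinases, followed the same libraries. Its level was 0.83 and 0.249 CPM in Confetti RFP and YFP, 0.932 and 0.48 CPM at 4 days in YFP and 2.10 and 2.73 CPM at 2 weeks in YFP. RFP libraries reached 1.12 and 14.5 CPM at 4 days and 18.9 and 9.81 CPM at 2 weeks. Every RFP library lay above the YFP libraries of its own time point, but the lowest RFP value was below both 2-week YFP values. The difference over both time points was 2.96 ± 0.72 (log2, SE, adjusted p = 0.187), 3.28 ± 0.46 (adjusted p = 0.0288) without the library labelled 4 days RFP replicate 1, and 1.95 ± 0.49 (adjusted p = 0.377) without 4-day RFP replicate 2.

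Mmp13 (ENSMUSG00000050578, chr9:7272514-7283331, plus strand) was nearly absent from control cells. Both Confetti libraries together held 3 UMIs and both 4-day YFP libraries 2, which set their levels at 0.0593 to 0.125 CPM. The 2-week YFP libraries stood at 1.01 and 5.47 CPM, the 4-day RFP libraries at 0.254 and 32.9 CPM, and the 2-week RFP libraries at 50.2 and 14.9 CPM. Pooled UMIs were 414 times as frequent in 2-week RFP as in Confetti libraries (95% counting interval 141 to 2006) and 152 times as frequent in 4-day RFP as in 4-day YFP libraries (41.7 to 1261). These intervals cover counting error only, and the 4-day ratio rests on replicate 2, which held 304 of the 309 UMIs. Of the 4181 UMIs in the 2-week RFP libraries, 3594 came from replicate 1. Over both time points the log2 difference was 4.65 ± 1.42 (SE, edgeR quasi-likelihood test, adjusted p = 0.214), and 3.25 ± 0.80 (adjusted p = 0.377) without 4-day RFP replicate 2.

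The share of these transcripts held by a few cells differed between genes and libraries. The 10 cells with the most Mmp13 UMIs held 26.9% of the UMIs in 2-week RFP replicate 1, 61.0% in 2-week RFP replicate 2 and 82.2% in 4-day RFP replicate 2, with up to 254 UMIs in a single cell. For Ecm1 the same share was 16.1%, 17.8% and 26.2%, and for Timp1 32.5%, 26.4% and 63.4%. For Lamb3, in contrast, it was 3.82%, 5.01% and 15.2% in these libraries.

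The proximal promoters of Ecm1, Mmp13 and Timp1 are printed because these genes shared a pattern of level across libraries. The 250 bases before the annotated start were taken from RefSeq (GRCm38.p6) for 7 of the 9 genes. No promoter of Fn1 or Lama3 was searched. Capitals mark each match to TGANTCA, the core of the AP-1 motif, on either strand.
Ecm1, chr3:95739570-95739819, minus strand: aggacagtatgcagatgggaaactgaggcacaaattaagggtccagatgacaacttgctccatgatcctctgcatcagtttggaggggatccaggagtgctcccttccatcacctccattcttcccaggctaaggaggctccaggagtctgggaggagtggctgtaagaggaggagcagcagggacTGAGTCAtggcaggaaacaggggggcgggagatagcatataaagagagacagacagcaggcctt
Mmp13, chr9:7272264-7272513, plus strand: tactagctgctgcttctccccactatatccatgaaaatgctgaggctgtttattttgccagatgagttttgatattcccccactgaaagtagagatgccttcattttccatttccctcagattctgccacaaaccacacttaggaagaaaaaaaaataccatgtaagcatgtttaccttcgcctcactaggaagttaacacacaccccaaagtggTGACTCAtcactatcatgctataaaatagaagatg
Timp1, chrX:20869916-20870165, plus strand: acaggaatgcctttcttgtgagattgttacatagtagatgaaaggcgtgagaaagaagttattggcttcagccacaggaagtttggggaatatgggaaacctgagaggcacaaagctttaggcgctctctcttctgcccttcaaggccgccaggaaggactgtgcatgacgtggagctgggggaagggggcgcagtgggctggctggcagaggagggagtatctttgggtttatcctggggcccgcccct
TGANTCA was found in Ecm1, starting 64 bases before the gene's start, and in Mmp13, starting 35 bases before it. None of the other 5 genes searched held it. Of 32851 promoters of the same length, 6.75% held it. TGTGGT, the core of the RUNX motif, was found on the other strand as ACCACA in Mmp13 (starting 118 bases before the start) and Mmp14 (114 bases), and 14.0% of all promoters held it. It did not overlap the AP-1 match. The NF-kB consensus was searched on both strands, was held by 7.25% of promoters, and matched 1 of the 2 promoters listed for Lamb3. A match is a description of the letters and no evidence of binding.

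Mmp14 (ENSMUSG00000000957, chr14:54431612-54445364, plus strand) differed by less, and its 2-week RFP replicates were nearly equal. Its level was 6.82 and 6.17 CPM in Confetti, 5.93 and 6.79 CPM in 4-day YFP and 8.35 and 6.33 CPM in 2-week YFP libraries. It was 6.60 and 11.2 CPM in 4-day RFP and 15.1 and 15.2 CPM in 2-week RFP libraries. The 2-week RFP libraries were above all others, and 2-week RFP against 2-week YFP gave 1.04 ± 0.33 (log2, SE, unadjusted p = 0.0141, adjusted p = 0.341 in the edgeR fit). Against Confetti the 2-week RFP difference was 1.23 ± 0.33 (adjusted p = 0.102), and from 4 days to 2 weeks within RFP it was 0.78 ± 0.32 (adjusted p = 0.570).

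The laminin chains differed in pattern. Lama3 (ENSMUSG00000024421, on chromosome 18, overlapped on the other strand by Gm29199, Gm29200 and Gm22340 and on its own by Gm29201) encodes the alpha 3 chain and stood at 4.74 and 3.93 CPM in Confetti, 7.71 and 3.36 CPM in 4-day YFP, 2.91 and 5.61 CPM in 2-week YFP, 7.57 and 21.6 CPM in 4-day RFP and 11.0 and 8.11 CPM in 2-week RFP libraries. Lamb3 (ENSMUSG00000026639, chr1:193207699-193343878, plus strand, overlapped on the other strand by Hsd11b1, G0s2, Gm38118 and Gm37650 and on its own by 4930570N18Rik and Gm37691), the beta 3 chain, stood at 57.9 and 51.7 CPM in Confetti, 50.6 and 38.1 CPM in 4-day YFP, 42.1 and 37.6 CPM in 2-week YFP, 56.6 and 40.6 CPM in 4-day RFP and 45.4 and 41.6 CPM in 2-week RFP libraries. At 2 weeks both RFP libraries were above both YFP libraries for Lama3, while RFP and YFP overlapped for Lama3 at 4 days and for Lamb3 at both times.

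The fitted differences between RFP and YFP over both time points were 1.27 ± 0.41 for Lama3 (log2, SE, edgeR quasi-likelihood test, adjusted p = 0.225) and 0.11 ± 0.17 for Lamb3 (adjusted p = 0.795). Lama3 was detected more often in cells with Lamb3 in 3 of the 4 RFP libraries, and also in 3 of the 6 wildtype libraries. With each cell thinned to 2000 UMIs, Lama3 was found in 6.36% of Lamb3-positive and 1.25% of Lamb3-negative cells in 2-week RFP replicate 1, in 4.42% and 1.59% in 2-week RFP replicate 2, and in 7.56% and 3.09% in 4-day RFP replicate 2. In the library labelled 4 days RFP replicate 1 the shares were 0.983% and 1.15%. Confetti YFP had 1.80% and 0.798%, 4-day YFP replicate 1 had 2.75% and 1.96%, and 4-day YFP replicate 2 had 1.51% and 0.538%. The positive shares rest on 4 to 25 cells with both genes in RFP libraries and on 8 or fewer in wildtype libraries, and they are a description of each library.

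The levels of fibronectin, biglycan and, in wildtype libraries, Timp1 and Ecm1 depended on which cells were summed. Fn1 (ENSMUSG00000026193, chr1:71585520-71653200, minus strand, overlapped on the other strand by Apol7d) stood at 1.19 and 1.81 CPM in Confetti, 3.90 and 2.76 CPM in 4-day YFP, 4.04 and 42.6 CPM in 2-week YFP, 2.49 and 46.7 CPM in 4-day RFP and 39.7 and 20.8 CPM in 2-week RFP libraries. Bgn (ENSMUSG00000031375, chrX:73483602-73495933, plus strand) stood at 8.71 and 11.97 CPM in Confetti, 23.0 and 0.30 CPM in 4-day YFP, 6.06 and 6.62 CPM in 2-week YFP, 13.3 and 2.93 CPM in 4-day RFP and 33.7 and 42.9 CPM in 2-week RFP libraries. RFP and YFP overlapped for Fn1 at both times, and for Bgn at 4 days.

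Cells with markers of other types were then left out, 2.21% to 12.5% of the Ptprc 0 cells of a library. These were cells with a UMI of Col1a1, Pecam1 or Foxj1, or with more than 1 gene detected from a list of immune, mesenchymal, endothelial or ciliated markers. The immune list summed to 10.7 to 792 CPM and the mesenchymal list to 0.106 to 50.9 CPM before this step, with the highest values of both in YFP libraries. In the cells that were kept, Fn1 was at 0.0621 and 0.27 CPM in Confetti, 0.194 and 0.905 CPM in 4-day YFP and 2.00 and 7.76 CPM in 2-week YFP, but still at 1.101 and 44.4 CPM in 4-day RFP and 38.2 and 17.0 CPM in 2-week RFP libraries. Bgn was at 0.559 and 1.28 CPM in Confetti, 0.776 and 0.302 CPM in 4-day YFP and 2.35 and 4.72 CPM in 2-week YFP, against 6.45 and 3.11 CPM in 4-day RFP and 28.7 and 39.5 CPM in 2-week RFP libraries. Only 6.12% of the Bgn UMIs and 5.0% of the Fn1 UMIs of the Confetti RFP library came from the kept cells, whereas 85.6% and 96.9% did so in 2-week RFP replicate 1. In immune cells (Ptprc-positive, with at least 3 immune markers) Fn1 was detected in 19.2% to 65.2% of cells of a library.

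**Figure D2:**
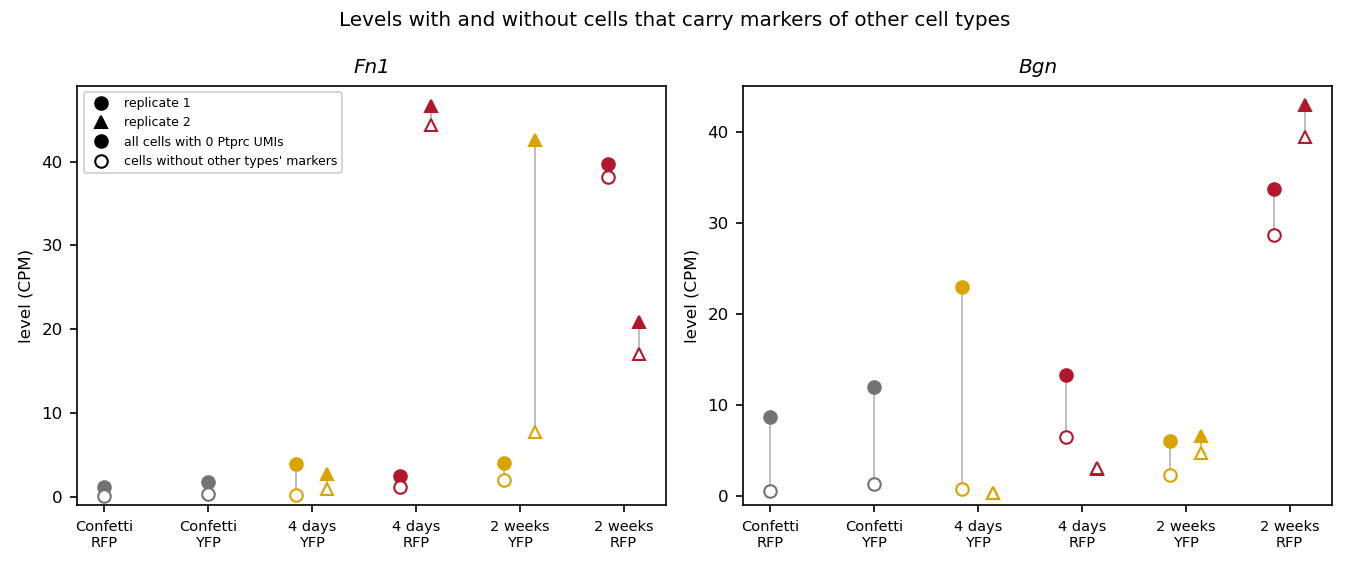
Level (y axis, CPM) of Fn1 and Bgn in each library in all cells with 0 Ptprc UMIs (filled) and in those without markers of other cell types (open), joined by a line for each library. Fn1 in 2-week YFP replicate 2 went from 42.6 to 7.76 CPM and Bgn in 4-day YFP replicate 1 from 23.0 to 0.776 CPM, while the 2-week RFP libraries kept most of their level.

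With these cells left out, the Bgn difference between RFP and YFP over both time points was 3.30 ± 0.37 (log2, SE, edgeR quasi-likelihood test, adjusted p = 0.0512), against 1.05 ± 1.14 (adjusted p = 0.691) with all Ptprc 0 cells. For Fn1 it was 3.68 ± 1.08 (adjusted p = 0.112), against 1.55 ± 1.05 (adjusted p = 0.507). With single libraries left out, the difference in all Ptprc 0 cells ranged from 0.53 to 3.11 for Bgn and from 0.11 to 2.88 for Fn1. The lowest Fn1 value came without 4-day RFP replicate 2. Bgn in 2-week RFP against Confetti passed the test in the cells kept (5.32 on the log2 scale, adjusted p = 0.0206, with 2.84% of all genes called higher), and was at 1.91 ± 1.34 (adjusted p = 0.390) in all Ptprc 0 cells. Timp1 was at 0.186 and 0 CPM in the kept cells of Confetti RFP and YFP, where 3 of 14 and 0 of 4 UMIs were left, and at 17.8 and 9.28 CPM in those of the 2-week RFP replicates. Ecm1 went from 3.73 and 4.43 CPM to 2.11 and 2.02 CPM in Confetti RFP and YFP and from 6.86 to 2.81 CPM in 4-day YFP replicate 1, where the kept cells held 54.0%, 42.3% and 35.8% of its UMIs. The Timp1 difference over both time points in the kept cells was 3.67 ± 0.96 (adjusted p = 0.0961).

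Timp3 (ENSMUSG00000020044, chr10:86300372-86349506, plus strand, overlapped on the other strand by Syn3), an inhibitor that binds to the matrix, varied between replicates more than between colours. Its level was 49.3 and 47.7 CPM in Confetti, 100.05 and 42.5 CPM in 4-day YFP, 105 and 37.3 CPM in 2-week YFP, 87.8 and 18.9 CPM in 4-day RFP and 77.2 and 53.6 CPM in 2-week RFP libraries. Replicate 1 was above replicate 2 in all 4 Red2Kras groups. In these groups replicate 2 was also almost wholly male and replicate 1 mixed, and an effect of sex on Timp3 was not tested. The difference over both time points was -0.29 ± 0.52 (log2, SE, adjusted p = 0.823).

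The number of transcripts captured from each cell differed between libraries, so the share of cells with a UMI was taken after each cell had been thinned to 2000 UMIs, which left out at most 1.07% of the cells of a library. At this depth 8.03% (95% exact interval 7.21 to 8.90) and 9.53% (8.47 to 10.7) of cells in the 2-week RFP replicates had an Ecm1 UMI, against 0.910% (0.648 to 1.24) and 1.06% (0.546 to 1.84) in the 2-week YFP replicates. Bgn was found in 4.28% and 5.28% of cells in 2-week RFP and in 0.537% and 0.704% in 2-week YFP replicates. Mmp13 was found in 3.45% and 1.31% against 0.0233% and 0.352%, and Timp1 in 1.88% and 1.17% against 0.210% and 0.264%. The Confetti RFP library held 1 Mmp13 UMI, which thinning removed. The intervals cover counting error only. With all UMIs, at median depths of 15685 and 13199 UMIs in RFP and 5833.5 and 6577 UMIs in YFP replicates, Ecm1 was found in 23.0% and 28.3% against 2.39% and 3.69% of cells.

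Immune cells of the same libraries gave the background, also at 2000 UMIs for each cell. In the 2-week RFP replicates 3.70% and 2.91% of immune cells had an Ecm1 UMI, 0.741% and 0.437% a Bgn UMI and 1.48% and 0.291% a Mmp13 UMI, all below the share in the Ptprc 0 cells. For Timp1 the immune share was 0.741% and 2.62%, so in 2-week RFP replicate 2 the share in Ptprc 0 cells was below that in immune cells. In the 2-week YFP replicates immune cells had Ecm1 in 5.30% and 0.993% and Timp1 in 1.52% and 0.828% of cells, at or above the YFP shares of Timp1 in both replicates and of Ecm1 in replicate 1. With all UMIs, Mmp13 was found in 1.52% and 0% of immune cells of the 2-week YFP replicates, against 0.139% and 0.527% of Ptprc 0 cells. For Bgn these shares were 0.758% and 0.166% against 1.14% and 1.67%. Immune cells may transcribe these genes themselves, and these shares do not tell that from free RNA. So no share of Timp1 in 2-week RFP replicate 2 or in the YFP replicates is read as expression from this measure alone. The same holds for Ecm1 and Mmp13 in 2-week YFP replicate 1. Lama3 was found in no immune cell of the 4 libraries at this depth.

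Of the 9 genes, 7 had a higher thinned share in both 2-week RFP than in both 2-week YFP libraries, all but Fn1 and Timp3, against 32.5% of all genes thinned in the same way. At 4000 UMIs for each cell Fn1 joined and Lamb3 left this set, which again held 7 genes, and without thinning all 9 were in it. Lamb3 was among the genes that separated only narrowly. In Ptprc 0 cells of 2-week RFP replicates, Lamb3 was found in 9.62% and 8.82% of cells at 2000 UMIs, against 7.58% and 4.66% in 2-week YFP replicates.

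**Figure D3:**
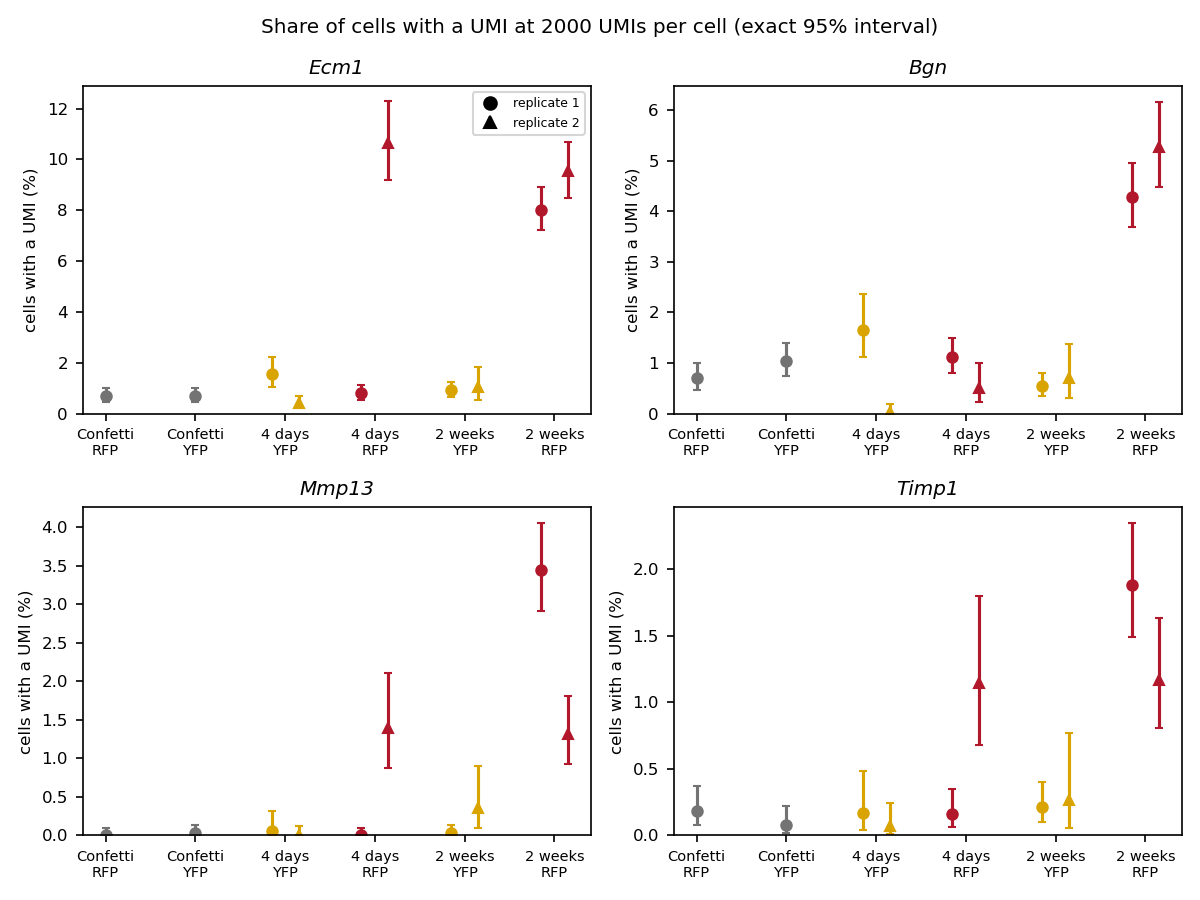
Share of cells with a UMI (y axis, percent, exact 95% interval for each library) of Ecm1, Bgn, Mmp13 and Timp1 with every cell thinned to 2000 UMIs, by group along the x axis, replicate 1 as circles and replicate 2 as triangles. The intervals of both 2-week RFP libraries lie above those of both 2-week YFP libraries for these 4 genes, and the library labelled 4 days RFP replicate 1 lies with the wildtype libraries for all 4.

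Mutant and wildtype cells of the same lungs were compared across all genes. Over both time points (4 RFP against 4 YFP libraries, time point as covariate) none of the 9 genes passed an adjusted p of 0.05, and none of the 14022 genes tested did (0%, edgeR quasi-likelihood test). At an unadjusted p under 0.05, 5 of the 9 were higher in RFP (Lama3, Ecm1, Mmp13, Mmp14, Timp1), against 8.53% of all genes, and none was lower. The adjusted p of these 5 lay between 0.187 and 0.225, and that of the other 4 between 0.507 and 0.823. No gene of the 9 had all 4 RFP libraries above all 4 YFP libraries (3.12% of all genes did) or below them (3.35%). The median log2 difference was 1.27 over the 9 genes and -0.04 over all genes tested. Since the 9 were chosen with earlier results of these data known, these counts and medians describe the set and do not test it. DESeq2 on the same sums called 706 genes, among them Ecm1, Mmp13 and Timp1, all higher, as were 3.44% of the genes tested. Without the filter on low counts edgeR called 529 genes, and Lama3, Ecm1, Mmp13 and Timp1 were among the 1.89% of 21290 genes that were called higher. Libraries of the same time and number deviated together, and with these 4 pairs as a replicate block 96 genes passed, none of the 9 among them.

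With cells carrying other types' markers left out and the 4 pairs kept as a block, a choice made after the data were seen, 2171 of 13187 genes passed. Higher in RFP were 6 of the 9, against 9.15% of all genes. Bgn differed by 3.28 ± 0.20 on the log2 scale (adjusted p = 0.000267), Timp1 by 3.63 (adjusted p = 0.00505), Fn1 by 3.52 (adjusted p = 0.0129), Ecm1 by 3.03 (adjusted p = 0.0153), Mmp13 by 4.41 (adjusted p = 0.0197) and Mmp14 by 0.74 (adjusted p = 0.0301). Lama3 (1.19, adjusted p = 0.0979), Lamb3 (0.03, adjusted p = 0.882) and Timp3 (-0.33, adjusted p = 0.334) did not pass. The same 6 genes passed in these cells without the block when the library labelled 4 days RFP replicate 1 was left out, with 1449 of 13653 genes passing and 6.81% of all genes called higher. This setting was also chosen after the data were seen. It removes the RFP library whose Ecm1 level lay with the YFP libraries, so it is no separate check of these calls.

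**Figure D4:**
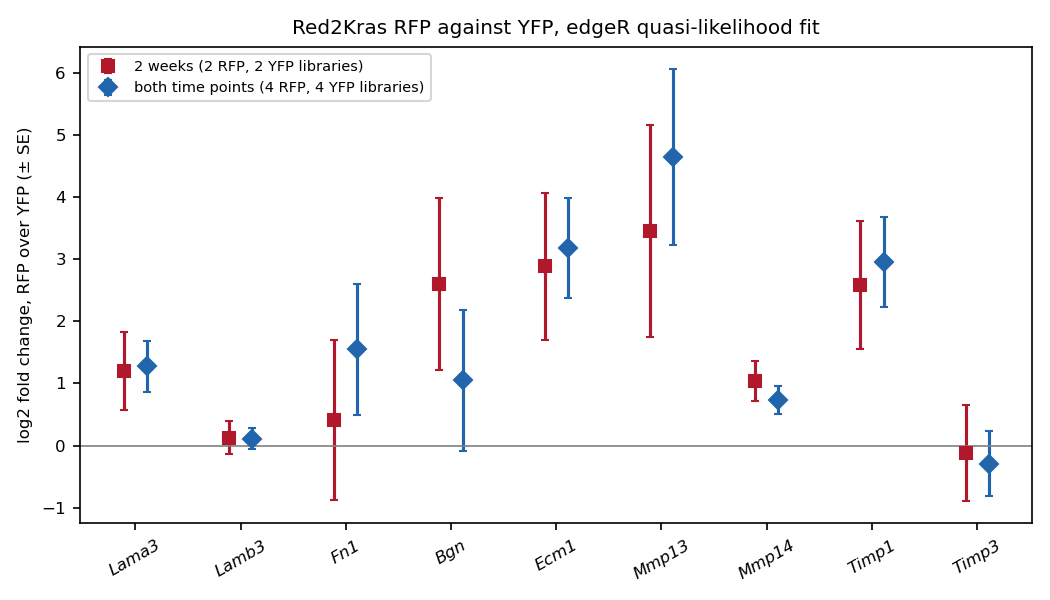
Fitted log2 difference between Red2Kras RFP and YFP (y axis, bars ± SE) for the 9 genes, at 2 weeks (squares) and over both time points (diamonds), in all Ptprc 0 cells. Mmp13, Ecm1 and Timp1 have the largest values over both time points (4.65, 3.18 and 2.96), and Lamb3 (0.11) and Timp3 (-0.29) lie nearest 0.

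At 2 weeks alone (2 RFP against 2 YFP libraries) none of the 9 and none of 14856 genes passed (0%), while 1880 genes had an unadjusted p under 0.05. Ecm1 (2.89 ± 1.18), Mmp14 (1.04 ± 0.33) and Timp1 (2.59 ± 1.03) were higher at an unadjusted p under 0.05, 3 of 9 genes against 7.20% of all. Both RFP libraries lay above both YFP libraries for 6 of the 9 (Lama3, Bgn, Ecm1, Mmp13, Mmp14, Timp1), against 27.1% of all genes, and for none did they lie below. In cells without other types' markers Fn1 joined these 6. DESeq2 called 324 genes at 2 weeks and none of the 9. Without the filter on low counts edgeR called 319, with Ecm1 and Timp1 among the 0.986% of 21599 genes called higher. At 4 days, 2 of the 9 (Mmp13 and Timp1) were separated in the same direction, against 12.6% of all genes, and none in the other (13.6%). In cells without other types' markers Timp1 overlapped at 4 days, at 0.419 and 15.8 CPM in RFP against 0.0971 and 0.483 CPM in YFP, with 8 of its 22 UMIs kept in the library labelled 4 days RFP replicate 1. None of the 9 or of all genes passed at 4 days (0%), with 511 genes at an unadjusted p under 0.05. Higher at that level were 3 of the 9 (Ecm1, Mmp13, Timp1), against 2.57% of all. Without 4-day RFP replicate 2 their log2 differences at 4 days were -0.24 for Ecm1, 1.78 for Mmp13 and 0.69 for Timp1. DESeq2 called 42 genes there, of which Mmp13 was 1 (0.276% of all were called higher), and edgeR without the filter called 99, with Ecm1, Mmp13 and Timp1 among the 0.444% called higher. Whether the RFP to YFP difference changed between the time points was tested as an interaction in the same edgeR fit, which called no gene, nor did DESeq2. At an unadjusted p under 0.05 it held 269 genes (0.862% of all in the higher direction) and none of the 9. Bgn had the smallest p of the 9 in this edgeR quasi-likelihood fit (3.07 ± 1.90, adjusted p = 0.9999). For Bgn it was 0.08 ± 0.94 in cells without other types' markers and 3.13 ± 1.06 without the filter on low counts. With single libraries left out, it was -2.17 without 4-day YFP replicate 1, 4.07 without 4-day YFP replicate 2 and 4.57 without 4-day RFP replicate 1. Between 4 days and 2 weeks within RFP edgeR called no gene and DESeq2 called 96, none of the 9. In edgeR 1295 genes had an unadjusted p under 0.05, and Mmp14 was the 1 gene of the 9 that was higher at that level, against 5.19% of all.

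Against wildtype Confetti cells, 2-week RFP cells gave 3 genes past the threshold (0.0202% of 14856), none of the 9. The nearest were Timp1 (4.96 ± 1.18, adjusted p = 0.0945), Mmp14 (1.23 ± 0.33, adjusted p = 0.102), Mmp13 (adjusted p = 0.109, its size given above as a ratio of UMIs) and Ecm1 (4.42 ± 1.27, adjusted p = 0.112), and Fn1 stood at 4.37 ± 1.53 (adjusted p = 0.145). Both RFP libraries were above both Confetti libraries for 8 of the 9 genes, against 36.3% of all genes, and below them for Lamb3, as for 35.9% of all genes. Wildtype YFP cells of the same lungs at 2 weeks had 1 gene past the threshold against Confetti (0.00673%), again none of the 9. At an unadjusted p under 0.05, Fn1 was higher (3.96 ± 1.51), 1 of 9 against 3.35% of all. In cells without other types' markers Fn1 was at 2.00 and 7.76 CPM in 2-week YFP, against 0.0621 and 0.27 CPM in Confetti. Those cells held 15.5% of the Fn1 UMIs of 2-week YFP replicate 2. Both YFP libraries lay above both Confetti libraries for 4 of the 9 (Fn1, Ecm1, Mmp13, Timp1) against 24.4% of all genes, and below them for Lamb3 and Bgn, as for 26.8% of all genes. For Bgn the order was the reverse in cells without other types' markers, at 2.35 and 4.72 CPM in 2-week YFP against 0.559 and 1.28 CPM in Confetti. These 2 comparisons share the Confetti libraries. Confetti comparisons at 4 days called no gene in either colour, with 5 of the 9 higher at an unadjusted p under 0.05 in RFP (4.54% of all genes) and none in YFP (0.936%). At 4 days 5 of the 9 were above both Confetti libraries in RFP (22.5% of all genes) and none below (24.5%), and in YFP Fn1 and Ecm1 were above (15% of all) and Lamb3 below (16.5%). In cells without other types' markers 4-day YFP overlapped Confetti for Fn1 (0.194 and 0.905 against 0.0621 and 0.27 CPM) and Lamb3 (56.7 and 37.8 against 60.4 and 55.4 CPM), and Ecm1 lay above it (2.81 and 4.29 against 2.11 and 2.02 CPM). DESeq2 called 1795 and 126 genes for 2-week and 4-day RFP against Confetti, with 5 and 2 of the 9 (7.59% and 0.761% of all genes were called higher), and 49 and 9 for 2-week and 4-day YFP, with none of the 9. Without the filter on low counts edgeR called 1889 and 240 genes for 2-week and 4-day RFP, with 5 and 4 of the 9 higher against 5.77% and 1% of all genes. For 2-week YFP it called 118, with Fn1 among the 0.491% called higher, and for 4-day YFP 15 and none of the 9.

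Within a library, Ecm1, Mmp13 and Timp1 were higher in cells that had a UMI of Cldn4, a tight-junction gene that marks the transitional state. Such cells numbered 1421 of 4096 and 1385 of 2829 in the 2-week RFP replicates, 144 and 430 in the 4-day RFP replicates, and 66 and 50 in the 2-week YFP replicates. Confetti and 4-day YFP libraries had 35 or fewer each and were not compared. Ecm1 was at 206 and 133 CPM in Cldn4-positive cells of the 2-week RFP replicates and at 14.6 and 12.8 CPM in Cldn4-negative cells. In the few Cldn4-positive cells of the wildtype 2-week YFP replicates it was at 154 and 95.7 CPM, against 3.796 and 4.97 CPM in the rest. YFP-sorted and RFP-sorted Cldn4-positive cells of 2 weeks thus overlapped in their level of Ecm1. The YFP sort is all that marks these few cells as wildtype, and no doublet caller was run. Whether they included mutant cells was not tested, so their level is not read as that of wildtype cells.

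Mmp13, Timp1 and Fn1 overlapped in the same way, and Lama3 did not. In the Cldn4-positive cells of 2-week YFP replicates Mmp13 was at 32.1 and 48.5 CPM, within the span of 27.8 to 113 CPM of such cells in the 2-week RFP replicates, and Timp1 was at 15.4 and 16.2 CPM, within 14.999 to 35.7 CPM. Fn1 was at 51.3 and 56.6 CPM against 82.3 and 31.0 CPM in RFP. Lama3 was at 10.3 and 12.1 CPM, below 21.2 and 12.5 CPM in RFP. These YFP values rest on 8 to 42 UMIs of a gene in a library. No test was run between classes of cells, since cells of 1 library are not replicates.

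Of the 9 genes, 6 (Lama3, Fn1, Ecm1, Mmp13, Mmp14, Timp1) were higher in Cldn4-positive than in Cldn4-negative cells in all 4 RFP libraries, against 24% of all genes tested. The ratio between the classes ran from 8.21 to 14.1 for Ecm1, from 3.30 to 10.3 for Fn1, from 2.15 to 6.50 for Lama3 and from 1.63 to 3.58 for Mmp14. In cells without other types' markers it ran from 9.22 to 39.1 for Fn1, from 9.08 to 17.4 for Ecm1, from 2.34 to 6.03 for Lama3 and from 1.59 to 5.01 for Mmp14. Lamb3 (ratios 0.970 to 2.92) and Timp3 (0.306 to 1.34) did not share this. With Krt8 (at least 2 UMIs) in place of Cldn4, 3 of the 9 (Lama3, Ecm1, Mmp13) were higher in all 4 RFP libraries, against 24.5% of all genes, and the lowest ratio was 0.520 for Fn1, 0.834 for Mmp14 and 0.740 for Timp1. Cldn4-positive cells had a higher median depth (20631 against 14203 UMIs in 2-week RFP replicate 1), and the levels are relative to it.

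**Figure D5:**
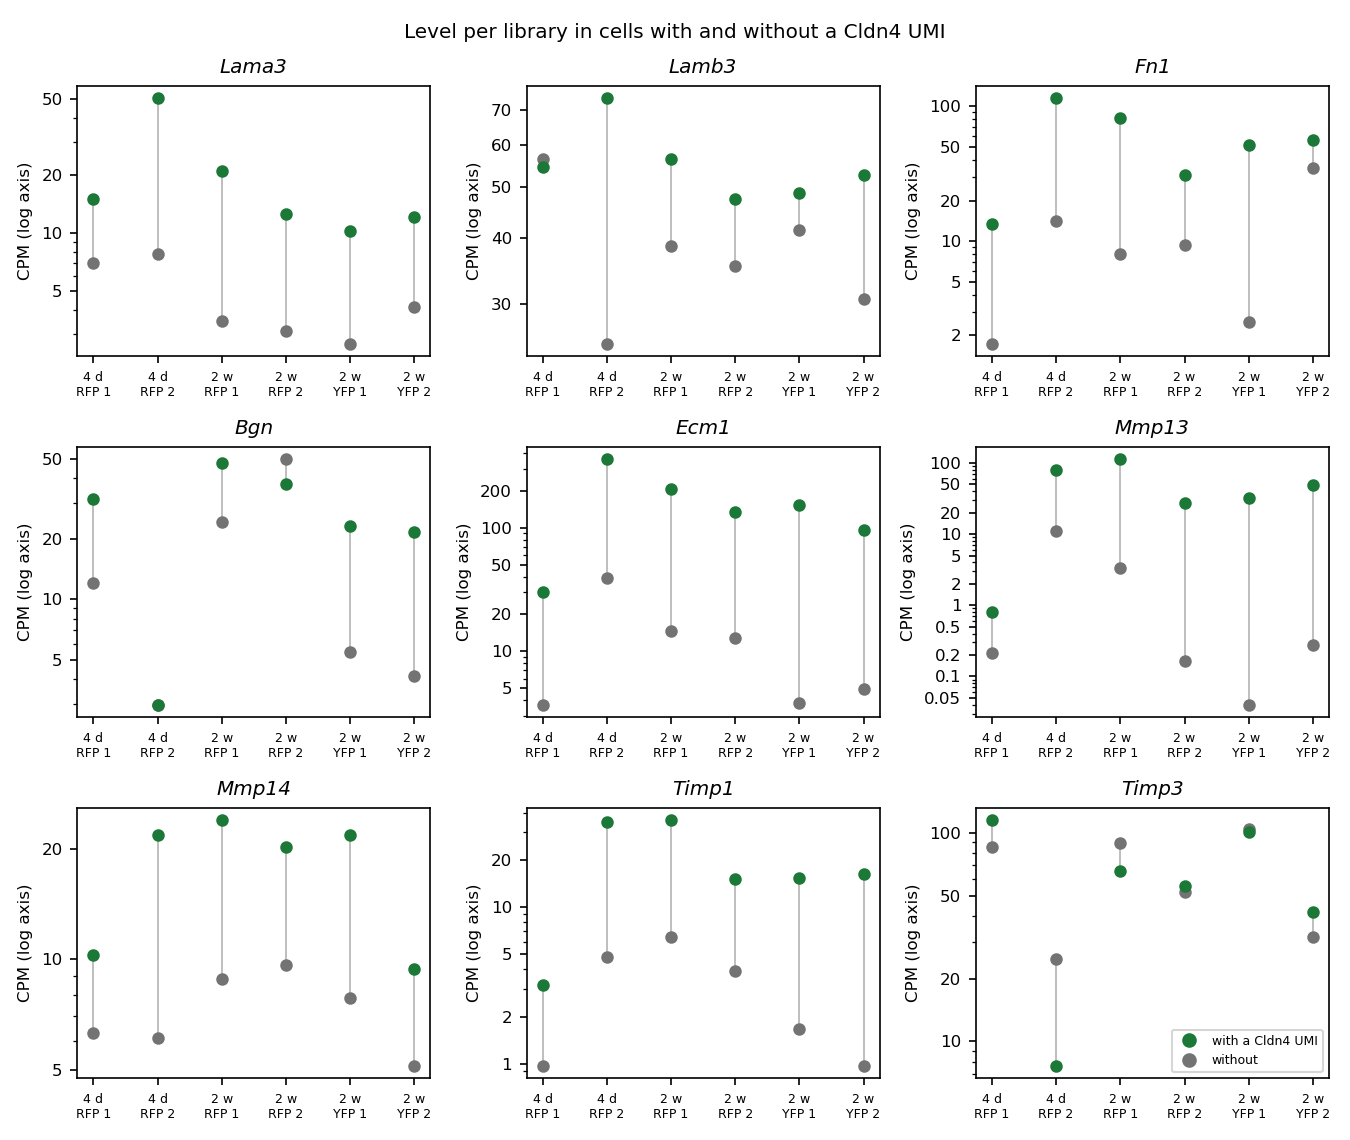
Level (y axis, CPM on a log axis, a scale for each gene) of the 9 genes in cells with (green) and without (grey) a Cldn4 UMI in the 6 libraries that had at least 50 cells of each class, joined by a line for each library. Ecm1, Mmp13, Timp1, Fn1, Lama3 and Mmp14 are higher in the green class in each of the 6, and Timp3 is not.

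Bgn did not keep to this order. In 2-week RFP replicate 2 it was lower in Cldn4-positive (37.5 CPM) than in Cldn4-negative cells (49.8 CPM), and in replicate 1 the order was the reverse (47.8 and 24.2 CPM). Cd177, a surface protein best known from neutrophils, was taken as another marker after the data had been seen. Cells with a Cd177 UMI numbered 311 and 334 in the 2-week RFP replicates. In them Bgn was at 133 and 112 CPM, against 23.8 and 30.8 CPM in cells without it, while Ecm1 was at 28.3 and 19.2 CPM against 107 and 88.2 CPM and Lama3 at 3.06 and 2.00 CPM against 12.2 and 9.27 CPM. Bgn was thus higher, and Ecm1 and Lama3 lower, in Cd177-positive cells of both libraries, and how often single cells held both Bgn and Ecm1 was not measured.

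Other genes of matrix assembly and turnover were taken from lists of 89 genes that leave out the 9, of which 87 were in the matrices and 74 were tested at 2 weeks. None passed in 2-week RFP against YFP. At an unadjusted p under 0.05, 9 were higher and 5 lower, against 7.20% and 5.46% of all genes, and their median log2 difference was -0.06 against -0.01 over all genes. Among 23 genes of the basement membrane 5 were higher and 1 lower, among 20 metalloproteinases 3 and 3, among 18 matrix glycoproteins none, among 10 crosslinkers none and 1, and among 3 inhibitors 1 and none. Mmp3 and Adam15 were among the 3 with the smallest p (adjusted p = 0.315 and 0.317). Mmp3, stromelysin 1, stood at 39.5 and 16.3 CPM in 2-week RFP and at 0.505 and 0.576 CPM in 2-week YFP libraries, with 2.49 and 9.86 CPM in 4-day RFP and 0.424 and 0.12 CPM in 4-day YFP libraries. Adam15, a membrane-bound disintegrin and metalloproteinase, was lower in 2-week RFP (11.5 and 8.36 CPM) than in 2-week YFP libraries (21.2 and 20.1 CPM).

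For each of the 9 genes the most similar pattern over the 10 libraries was sought among 9278 genes with a mean of at least 5 CPM (Pearson's r of log2 CPM). Ecm1 was most like Nras (r = 0.990) and Dusp5 (0.986), Mmp13 like Baz1a (0.982) and Sox9 (0.976), and Timp1 like D1Ertd622e (0.986) and Itgb4 (0.972), the integrin chain that binds the laminin made with Lama3. Mmp14 was most like Map2k4 (0.981) and Pmepa1 (0.976), Lama3 like Itpripl2 (0.9503) and Flna (0.940), and Lamb3 like Rbbp6 (0.948) and Foxp1 (0.940). Fn1 was most like Lgals1 (0.972) and Ppp1r18 (0.958), Bgn like Ier3 (0.964) and Cdkn1c (0.927), and Timp3 like Pdgfa (0.943) and Tmem39b (0.934). The 10 points share depth, time and colour, and the values describe these libraries.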

How the data were processed

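Single-cell libraries of sorted lung cells were sequenced on the 10x Genomics platform. The authors aligned and counted reads with Cell Ranger (3.1.0 in the submitters' processing notes, another version in the file headers; the chemistry version also differs between the labels and the methods) against GRCm38, and deposited raw UMI counts for each gene and barcode, not normalized. Cells with at least 1000 genes, at most 50000 UMIs and at most 15% mitochondrial UMIs were kept here. No doublet caller was run. Cells with 0 Ptprc UMIs were summed for each library, mitochondrial genes were dropped, and levels are CPM of TMM-scaled totals. Depth was 8163707 to 71669755 UMIs for each library.

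Sums were tested with edgeR 4.0.16 (R 4.3.3) by the quasi-likelihood test after filterByExpr, with 6 groups as coefficients over 10 libraries, or time point and colour over the 8 Red2Kras libraries, and Benjamini-Hochberg adjustment over all genes (threshold 0.05). All 9 genes passed the filter. The script was tested on simulated data. Replicates of a group differed by more than sampling noise (chi-square per degree of freedom 64.6 to 194). The sources used here do not say that replicates came from separate mice. Second replicates of Red2Kras groups held at most 0.471% female cells and first replicates 26.4% to 83.7%, so these cannot be wholly the same mice. The p-values measure the spread between these libraries. Same-numbered RFP and YFP libraries deviated together from their group means (Pearson's r over genes 0.468 at 4 days and 0.559 at 2 weeks, the same for both numbers of a time because groups hold 2). Female cells were 82.3% in RFP and 83.7% in YFP replicate 1 at 4 days, and 35.4% and 26.4% at 2 weeks. In replicate 2 they were 0.383% and 0.179% at 4 days, and 0.0512% and 0.471% at 2 weeks. The labels do not say what a number marks, and the main fits did not pair these libraries. Genes named were the 9, the 3 list genes with the smallest p at 2 weeks where none was called (1 of them is not reported here), and 2 similar genes for each. Alternatives were DESeq2 1.42.0, RLE factors, no filter, other cell sets, replicate blocks and leaving out each library. The study's methods say that libraries were made on 2 days, but no source used here says which library belongs to which day, so a day could not be fitted, and how days relate to the replicate numbers is not known here. Gene positions are from GENCODE M21 (GRCm38). Overlapping genes are named where they occur, and how strand was used in counting is not given in the sources used here. The 9 genes and the lists were chosen with earlier results of these data known.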

Additional observations from a re-analysis of the deposited data

How the results depend on the processing

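All 9 genes kept their direction in every alternative in 2-week RFP against Confetti. Over both time points the exceptions were Lamb3, which turned to -0.0460 in cells without other types' markers and without the library labelled 4 days RFP replicate 1, and Timp3, which turned when single libraries were left out (range -0.78 to 0.0405 on the log2 scale). At 2 weeks in RFP against YFP, Lamb3 turned to -0.0110 in cells without other types' markers, and to -0.0111 without that library as well. Fn1 turned to -0.71 with Ptprc-positive cells included and ranged from -0.51 to 2.91 with single libraries left out, and Timp3 turned to 0.0511 with the replicate number as a replicate block and ranged from -0.68 to 0.80. At 4 days Bgn turned to 3.26 in cells without other types' markers (2.62 without the library labelled 4 days RFP replicate 1 as well), and Lamb3 to -0.0916 in the latter. With single libraries left out, the 4-day ranges were -1.97 to 4.76 for Bgn, -0.12 to 0.36 for Lamb3, -0.41 to 3.82 for Fn1, -0.24 to 4.49 for Ecm1, 1.78 to 8.76 for Mmp13, 0.69 to 4.38 for Timp1 and -1.92 to 0.33 for Timp3. The cause was not tested.

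Counts of genes past the threshold moved more. DESeq2 called 324 genes (2 weeks RFP against YFP), 42 (4 days RFP against YFP), 706 (both time points), 1795 (2-week RFP against Confetti), 49 (2-week YFP against Confetti), 126 (4-day RFP against Confetti), 9 (4-day YFP against Confetti) and 96 (2-week against 4-day RFP), with 0, 1, 3, 5, 0, 2, 0 and 0 of the 9. Without a filter on low counts the same comparisons gave 319, 99, 529, 1889, 118, 240, 15 and 101 genes, with 2, 3, 4, 5, 1, 4, 0 and 0 of the 9. Genes of the matrix lists called by DESeq2 were 3, 1, 6 and 12 in the first 4 of these, and without a filter 4, 1, 5 and 14. Cells without other types' markers gave 1 gene at 2 weeks, 611 in 2-week RFP against Confetti (1 of the 9, 4 list genes) and 4 each in 2-week and 4-day YFP against Confetti. In those cells without the library labelled 4 days RFP replicate 1, the counts were 2 at 2 weeks, 197 at 4 days (4 of the 9), 1449 over both time points (6 of the 9, 14 list genes) and 1831 against Confetti (6 of the 9, 14 list genes). With all cells that passed the quality filters, 2-week RFP and YFP against Confetti gave 0, and with no quality filter 2-week RFP gave 6. Taking both Confetti libraries as 1 group gave 894 genes for 2-week RFP (1 of the 9, 6 list genes) and 0 for 2-week YFP.

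With the replicate number as a replicate block, 3 genes passed over both time points, and with 4 pairs as a replicate block 96 (2 list genes), or 2171 in cells without other types' markers (6 of the 9, 18 list genes). The replicate block changed no other call in the comparisons it was fitted to. Leaving out single libraries gave 0 to 368 genes over both time points (0 to 2 of the 9, 0 to 3 list genes), 0 to 1 at 4 days, 0 to 187 in 2-week RFP against Confetti (0 to 3 of the 9, 0 to 4 list genes), 0 to 1 in 2-week YFP, 0 to 10 in 4-day RFP (0 to 1 of the 9) and 0 to 1 in 4-day YFP against Confetti. The 368 and 10 came without the library labelled 4 days RFP replicate 1, as did the 187, and 180 came without 4-day RFP replicate 2. A group left with 1 library was assumed to vary like the others. With Krt8 (at least 2 UMIs) in place of Cldn4 the number of genes higher in positive cells of every RFP library was 3 (Fn1, Mmp14 and Timp1 were lost), and with Cd177, in the 2 libraries with enough cells, 1. With Itga2, in the 3 libraries with enough cells, it was 7, as it was with Cldn4 in cells without other types' markers, and both added Lamb3 to the 6. Depth limits the wildtype levels of Mmp13 and Timp1, which rest on 1 to 54 UMIs in a library.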
